A study of Mus musculus with 8 samples.

Results

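Osr1, Twist2, Hic1 and Foxs1 encode transcription factors of the mesenchymal and perivascular cells of muscle, and their 5-hydroxymethylcytosine (5hmC) was read from 4 immunoprecipitated libraries of primary mouse myoblasts. They are 4 of the 273 genes in the deposited tables, and all 4 belong to the 220 genes that the authors marked UP in the Psat1 knockout. The criterion behind that mark is not given in the sources used here. The genes were chosen by name with their 5hmC levels and their knockout to control ratios already known, so those values are given as a description, without a test. The 2 genotypes were CTRL (Pax7 +/+; Psat1fl/fl) and Psat1KO (Pax7 CRE+/-; Psat1fl/fl). Both carried the floxed Psat1 gene, and only Psat1KO carried the Cre allele at Pax7, which is active in muscle stem cells, so Cre and Psat1 loss cannot be told apart. Cells came from hindlimb muscle and were grown as myoblasts. There were 2 libraries per genotype, 1 in each of 2 tables, and the labels do not say whether they came from separate animals. Input libraries were not analysed here, nor was Psat1 itself.

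5hmC is made when TET enzymes oxidise methylated cytosine, with alpha-ketoglutarate as a cosubstrate. Psat1 is the transaminase of serine biosynthesis, and its reaction also yields alpha-ketoglutarate. In muscle, Osr1 is known from mouse work in interstitial connective tissue cells, and Twist2 in interstitial cells. Hic1 is known in quiescent mesenchymal progenitors, and Foxs1 in pericytes, the cells that wrap small vessels. Osr1 and Hic1 are zinc-finger factors and Hic1 acts as a repressor. Twist2 is a basic helix-loop-helix factor known to restrain myogenic differentiation, and Foxs1 is a forkhead factor. The tables hold 5hmC and no expression, so they cannot show which cells use these genes. Of 12 myogenic markers, Pax7, Myf5 and Myf6 were in the tables, all among the 53 DOWN genes.

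The signal is read coverage in consecutive bins along each gene, numbered from 1, and the level of a gene is its mean over the bins. Libraries were made from bulk cultures, so fewer cells carrying 5hmC at a gene and less 5hmC per cell cannot be told apart. Low values stepped by 0.0442 and 0.0327 in the CTRL and Psat1KO libraries of the first table, and by 0.0143 in both libraries of the second table. A step was read as the worth of 1 read per 1000000, which gives 22632699, 30559008, 69765569 and 69794435 reads in that order. Of low values, 83.2%, 80.5%, 74.3% and 73.3% were whole multiples of the step within 1%, and the scale is assumed, so these depths are estimates. By them, the second table was the more deeply sequenced. Summed over bins, Osr1 held the worth of 58.5 and 58.8 reads in CTRL and Psat1KO of the first table, and 143 and 151 in the second table. Twist2 held 50.3 and 53, then 133 and 126. A read can be counted in several bins, so these sums overstate the number of reads and no interval is drawn from them.

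The window behind the bins is not stated, but the values bear on it. In the 15 UP genes shorter than 3500 bp, the signal changed less from bin to bin within bins 21 to 82 than outside them. The relative change, the mean difference between neighbouring bins over their mean sum with bins limited to 0.5, was 0.358 inside and 0.555 outside in CTRL of the second table. In the 64 UP genes longer than 60000 bp the order was opposite, with 0.679 inside and 0.576 outside. These orders held in all 4 libraries. The bounds, bins 21 and 82, were themselves picked for the largest contrast between these short and long genes over the same libraries. The size of the contrast, and its holding in each library, were thus partly built in and are no test of the layout. As an assumption, bins 21 to 82 are taken to scale with gene length, and the 20 bins before and the 19 after are not. The length limits were also set after the values were seen. Foxs1, with 1311 bp 1 of the 3 shortest UP genes, had a relative change of 0.288 inside and 0.587 outside. It is also 1 of the 15 short genes used to pick the bounds. Twist2, with 46574 bp, had 0.819 and 0.632. Osr1, with 7059 bp, had 0.528 and 0.6, and Hic1, with 8879 bp, 0.728 and 0.568, so genes of intermediate length fell on either side. If the inner stretch is the gene, 1 bin covers 21.1 bp in Foxs1, 114 bp in Osr1, 143 bp in Hic1 and 751 bp in Twist2. Neighbouring bins of Foxs1 then share reads, and its profile holds fewer separate observations than those of the other members.

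**Figure D1:**
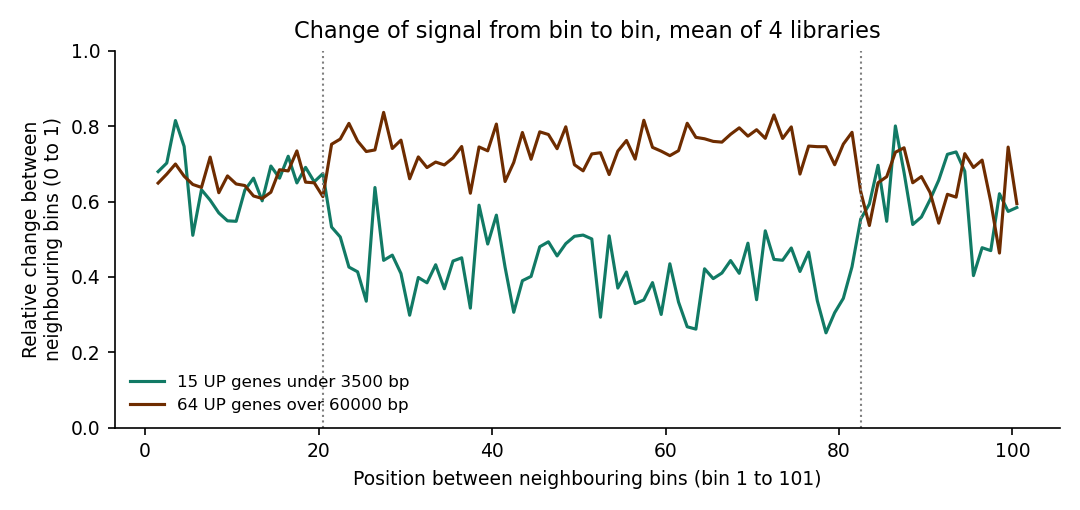
Relative change of signal between neighbouring bins (vertical axis, 0 to 1) along the bins (horizontal axis), averaged over 4 libraries, for the 15 UP genes under 3500 bp and the 64 UP genes over 60000 bp. Dotted lines bound bins 21 to 82, between which the short genes change less and the long genes more than outside. These bounds were picked for the largest such contrast.

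Coordinates are RefSeq gene bounds on GRCm38, the assembly also called mm10. Osr1 lies on chromosome 12 from 9574442 to 9581500, plus strand, with the predicted gene Gm40268 466 bp beyond its right end, which is the side of bins 73 to 92 if bins follow the strand. Twist2 lies on chromosome 1 from 91801461 to 91848034, plus strand, and the predicted gene Gm46117 overlaps it. Hic1 lies on chromosome 11 from 75161377 to 75170255, minus strand, and its bounds overlap those of Smg6, a gene of nonsense-mediated decay, so signal there cannot be given to either gene alone. Foxs1 lies on chromosome 2 from 152931898 to 152933208, minus strand, with Mylk2, a myosin light chain kinase gene, 8833 bp away on its left.

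CpG sites are the main substrate of methylation and hence of 5hmC, so the promoters of the members in the RefSeq promoter table are shown. These are Twist2, with 1 start, and Hic1, with 2. Each sequence runs from 250 bases before to 50 bases after the start, 5′ to 3′ on the gene's strand, with every CpG in capitals. They lie at chr1:91801211-91801510 (plus), chr11:75170206-75170505 (minus) and chr11:75168103-75168402 (minus) of GRCm38.
Twist2: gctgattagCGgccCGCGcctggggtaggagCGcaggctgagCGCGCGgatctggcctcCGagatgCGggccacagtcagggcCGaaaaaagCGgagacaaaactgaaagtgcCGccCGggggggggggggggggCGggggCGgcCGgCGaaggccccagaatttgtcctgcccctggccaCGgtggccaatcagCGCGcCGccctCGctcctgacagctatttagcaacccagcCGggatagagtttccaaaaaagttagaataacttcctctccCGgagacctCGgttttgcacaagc
Hic1, upstream start: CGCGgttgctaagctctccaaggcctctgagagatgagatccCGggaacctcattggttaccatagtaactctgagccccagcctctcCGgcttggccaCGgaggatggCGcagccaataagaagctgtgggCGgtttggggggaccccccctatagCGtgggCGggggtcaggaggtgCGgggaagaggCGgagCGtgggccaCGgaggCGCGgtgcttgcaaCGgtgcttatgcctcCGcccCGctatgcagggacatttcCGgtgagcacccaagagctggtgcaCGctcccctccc
Hic1, downstream start: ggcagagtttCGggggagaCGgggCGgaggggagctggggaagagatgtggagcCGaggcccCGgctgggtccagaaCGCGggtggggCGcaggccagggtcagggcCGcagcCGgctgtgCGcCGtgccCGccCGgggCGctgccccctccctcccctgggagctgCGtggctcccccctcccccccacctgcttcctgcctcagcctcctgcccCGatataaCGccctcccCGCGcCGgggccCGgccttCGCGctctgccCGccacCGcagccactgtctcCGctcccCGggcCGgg

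The Twist2 promoter holds 25 CpG sites, more than 81.6% of the 32851 mouse promoters of the same length in that table. The Hic1 promoters hold 20 and 29, more than 73.5% and 87.1%, where the median is 7 over all promoters and 13 over the 151 UP genes with one. The sources used here do not say whether bins run along the gene's strand, so no bins of the minus-strand genes Hic1 and Foxs1 are taken as a start. For the plus-strand genes, if the length-scaled stretch is the gene, the start lies near bins 19 to 23. There the mean signal of Twist2 was 0.0175 and 0.0131 in CTRL and Psat1KO of the first table, and 0.00839 and 0.00287 in the second table. Averaged over the libraries, this was 55.1% of the level of Twist2, and 63 of 220 UP genes had less in the same bins. In every library this mean of Twist2 lay below the step, the worth of 1 read, so these values rest on few reads. Their difference between genotypes was not tested. Osr1 had 0.0177 and 0.0402 in the first table and 0.02 and 0.0315 in the second, and 163 UP genes had less.

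Osr1 had a level of 0.0256 in CTRL and 0.0191 in Psat1KO of the first table, and of 0.0203 and 0.0214 in the second table. The genotypes overlapped, since the Psat1KO value of the second table exceeded the CTRL value of the second table. Psat1KO was 0.744 times CTRL in the first table and 1.06 times in the second table, so the direction turned between the tables. Osr1 ranked 82nd and 142nd of 220 UP genes in the first table, and 124th and 118th in the second table. The means were 0.0229 ± 0.00379 in CTRL and 0.0202 ± 0.00167 in Psat1KO (SD, n = 2), and the difference is smaller than the spread between the CTRL libraries. The inner stretch, bins 21 to 82, carried the opposite directions, at 0.510 times CTRL in the first table and 1.12 times in the second table. The 19 bins after it had 0.837 and 0.873 times, whereas bins 1 to 20 had 2.54 times in the first table and 1.00 times in the second table. In CTRL of the first table bins 1 to 20 held 0.0111 on average, below the step of 0.0442, so the ratio of 2.54 rests on few reads. The inner stretch held 0.0305 in CTRL and 0.0156 in Psat1KO of that table. These and the values of the last 19 bins there also lay below the step of their library, so the ratios of 0.510 and 0.837 rest on few reads too.

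Twist2 had the lowest level of the 4 genes. It was 0.0220 in CTRL and 0.0172 in Psat1KO of the first table, and 0.0189 and 0.0179 in the second table. Both Psat1KO values lay below both CTRL values. The ratios were 0.780 and 0.945, and the means 0.0205 ± 0.00220 and 0.0175 ± 0.000499 (SD, n = 2). Of the UP genes, 40 of 220 had a lower ratio in the first table and 55 in the second table, and 50 genes, or 22.7%, were lower in Psat1KO in both tables. Being lower in both tables is a weaker condition than having no overlap, and the share of UP genes without overlap was not counted. Twist2 was lower in Psat1KO in both tables in bins 1 to 20. There the signal was 0.0301 and 0.0131 in the first table and 0.0187 and 0.00990 in the second table, or 0.435 and 0.529 times CTRL. Both values of the first table and the Psat1KO value of the second lay below the step of their library, so these ratios rest on few reads. In the inner stretch, the ratios were 1.11 and 0.996, and in the last 19 bins they were 0.588 and 1.13. Both these stretches also lay below the step in both libraries of the first table. Over all UP genes, bins 1 to 20 had ratios of 0.997 and 1.03. The stretches of Twist2 were compared after their values were seen and were not tested.

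Foxs1 had a level of 0.0460 in CTRL and 0.0286 in Psat1KO of the first table, and of 0.0270 and 0.0258 in the second table. The CTRL library of the first table stood above the other 3 libraries, which lay close together, and the genotypes overlapped. The ratio was 0.621 in the first table, where 9 of 220 UP genes had a lower one, and 0.958 in the second table, where 65 did. The means were 0.0365 ± 0.0135 in CTRL and 0.0272 ± 0.00194 in Psat1KO (SD, n = 2), so the difference is within the CTRL spread. Foxs1 ranked 6th of 220 in CTRL of the first table, and 58th, 43rd and 56th in Psat1KO of the first table and in CTRL and Psat1KO of the second table. In the inner stretch, Psat1KO was 0.697 and 0.829 times CTRL. In the last 19 bins the ratio was 0.401 in the first table and 1.06 in the second table, and in bins 1 to 20 it was 0.643 and 1.34. Every stretch lay below the step in Psat1KO of the first table, the inner one narrowly, at 0.0323 against 0.0327. The ratios of all stretches in that table thus rest on few reads. The inner stretch alone kept a direction across the tables.

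Hic1 had a level of 0.0580 in CTRL and 0.0375 in Psat1KO of the first table, and of 0.378 and 0.0438 in the second table. It ranked 2nd, 18th, 1st and 2nd of 220 in these libraries, and the CTRL value of the second table was 6.52 times that of the first table. The ratios were 0.647 and 0.116. These levels rest on bin 63. There the CTRL and Psat1KO libraries of the first table held 3.36 and 0.982, and those of the second table held 36.1 and 1.83. In units of the step, these are 76, 30, 2516 and 128 reads. Bin 63 was the highest of all 22220 UP bins in both CTRL libraries and in Psat1KO of the second table, and the 4th highest in Psat1KO of the first table. It was high in both genotypes, at 134 and 34.9 times the mean of the other 100 bins in the first table and 1674 and 70.7 times in the second table. In CTRL of the second table bins 62 and 64 each held 0.0143, the worth of 1 read, and in CTRL of the first table and Psat1KO of the second neither held the worth of 1 read. In Psat1KO of the first table bin 62 held 0.0956 and bin 64 0.0327, against a mean of 0.0281 over the bins other than bin 63. Bin 63 was lower in Psat1KO in both tables, at 0.292 and 0.0509 times CTRL. The CTRL libraries themselves differed by 10.7 times in it, with a mean of 19.7 ± 23.1 (SD, n = 2). Whether input DNA shows the same pile of reads was not tested.

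Without bin 63, Hic1 had a level of 0.0250 in CTRL and 0.0281 in Psat1KO of the first table, and of 0.0215 and 0.0259 in the second table. Both Psat1KO values now lay above both CTRL values, the reverse of the order with all bins. The ratios were 1.12 and 1.20, with 149 and 186 of 220 UP genes lower, and the means were 0.0233 ± 0.00246 and 0.0270 ± 0.00153 (SD, n = 2). By all bins, 66 of the 220 UP genes were higher in Psat1KO in both tables, and the share without overlap was not counted. Without bin 63, Hic1 ranked 88th, 62nd, 95th and 54th. Only the inner stretch was higher in Psat1KO in both tables, at 1.38 and 1.27 times CTRL. In bins 1 to 20 the ratios were 0.998 and 1.16, and in the last 19 bins 0.887 and 1.15, so in the second table every stretch was higher. In the first table the inner stretch held 0.0167 in CTRL and 0.0230 in Psat1KO, both below the step of their library. The outer stretches of CTRL in that table also lay below the step, so the first-table ratios rest on few reads. The outer bins of Hic1 held more signal than its inner stretch, with 0.0369 in bins 1 to 20 and 0.0338 in the last 19 bins against 0.0186, averaged over the libraries.

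**Figure D2:**
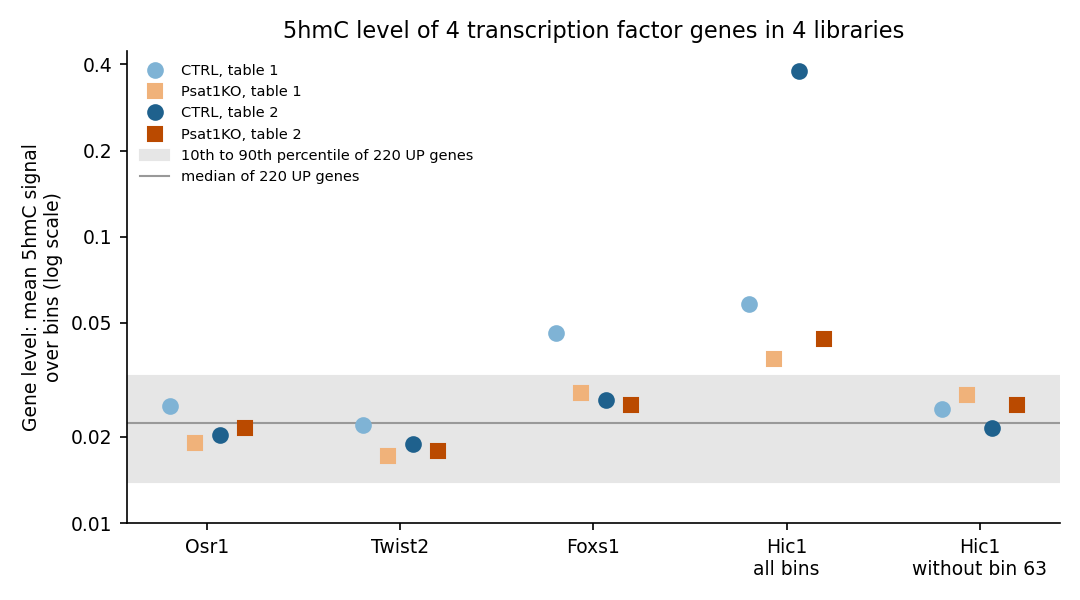
Level (mean 5hmC signal over bins, log scale) of each gene in each library. Circles are CTRL and squares Psat1KO, pale for the first table and dark for the second table, and the grey band and line give the 10th to 90th percentile and the median of the 220 UP genes, each averaged over the libraries. Osr1 and Twist2 lie inside the band in every library, and Hic1 enters it only without bin 63.

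Averaged over the 4 libraries, the order of levels among the members was Hic1 (0.129 ± 0.166), Foxs1 (0.0319 ± 0.00951), Osr1 (0.0216 ± 0.00285) and Twist2 (0.0190 ± 0.00214) (SD over libraries, n = 4). Without bin 63, Hic1 came to 0.0252 ± 0.00273 and fell between Foxs1 and Osr1. The gap between Foxs1 and Hic1 without bin 63 was smaller than the SD of Foxs1, and that between Osr1 and Twist2 smaller than the SD of Osr1. The gap between Hic1 without bin 63 and Osr1 exceeded the SD of either, but their libraries overlapped. Foxs1 ranked 28th of 220 UP genes, between Ugt1a7c (0.0323 ± 0.00208) and Nmi (0.0317 ± 0.00353). Osr1 ranked 116th, between Jade1 (0.0217 ± 0.00260) and Cav1 (0.0216 ± 0.00292), and Twist2 147th, between Bgn (0.0192 ± 0.00372) and Tfpi2 (0.0190 ± 0.00379). Hic1 ranked 1st, above Erdr1 (0.0608 ± 0.00380), and 76th without bin 63, between Lhfp (0.0253 ± 0.00140) and Lif (0.0251 ± 0.00417). All these neighbours differed from the members by less than the SD over libraries, apart from Erdr1 and Hic1 with all bins, where the SD of Hic1 exceeds the gap as well.

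The 4 genes held more than an even share of signal around the later bound of the length-scaled bins in every library but 1, Psat1KO of the first table for Hic1. Bins 73 to 92, 20 bins that would hold 19.8% of an even signal, held 50.8% and 36.9% of the signal of Osr1 in CTRL and Psat1KO of the first table, and 39.6% and 40.9% in the second table. For Twist2 the shares were 29.3% and 26.5%, then 41.9% and 42.3%. Bin 79 alone held 7.36% and 13.2%, then 17.3% and 13.7%, of the signal of Twist2, and its shares without that bin were not computed. For Foxs1 they were 32.3%, 29%, 32.7% and 32.5%, and for Hic1 without bin 63 they were 29.4%, 19.8%, 29% and 29.7%. Osr1 was high in this respect, since only 3 of 220 UP genes had a higher mean share. For Twist2 19 genes did, for Foxs1 28 and for Hic1 48, and the median over UP genes was 18.1%. Bins 41 to 60 held less than an even share in Osr1 and Twist2 in all 4 libraries. The shares of Osr1 were 5.13% and 1.70% in the first table and 9.10% and 7.92% in the second, and 8 UP genes had a lower mean share. Those of Twist2 were 5.96% and 3.78%, then 14.3% and 13.5%, with 23 genes lower. Hic1 without bin 63 had 17.7% and 9.36%, then 11.3% and 15.0%, with 59 genes lower. Foxs1 had 21.8% in CTRL of the first table, above the even share, and 13.6%, 12.1% and 11.3% in the others, with 71 genes lower. These stretches were picked after the profiles were seen, so the shares describe these libraries and carry no test.

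Single bins recurred within that stretch. Bin 79 of Twist2 had 0.164 in CTRL and 0.229 in Psat1KO of the first table, and 0.331 and 0.248 in the second table, which is 3.70, 6.99, 23.1 and 17.3 reads. It was at least 7.43 times the mean of the gene in every library, and the Psat1KO to CTRL ratio turned from 1.4 to 0.749 between the tables. In Osr1, bins 76 and 77 recurred, with 0.129 and 0.110 for bin 77 in the first table and 0.108 and 0.0856 in the second table. In Foxs1, bins 80 and 81 recurred, with 0.177 and 0.0818 for bin 81 in the first table and 0.115 and 0.0716 in the second table. A bin counted as recurring when it exceeded 2 times the gene's mean (for Hic1 without bin 63) in all 4 libraries. Osr1 had 4 such bins and the other members 2 each, and 95.5% of UP genes had at least 1, so recurrence by itself does not set the members apart.

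**Figure D3:**
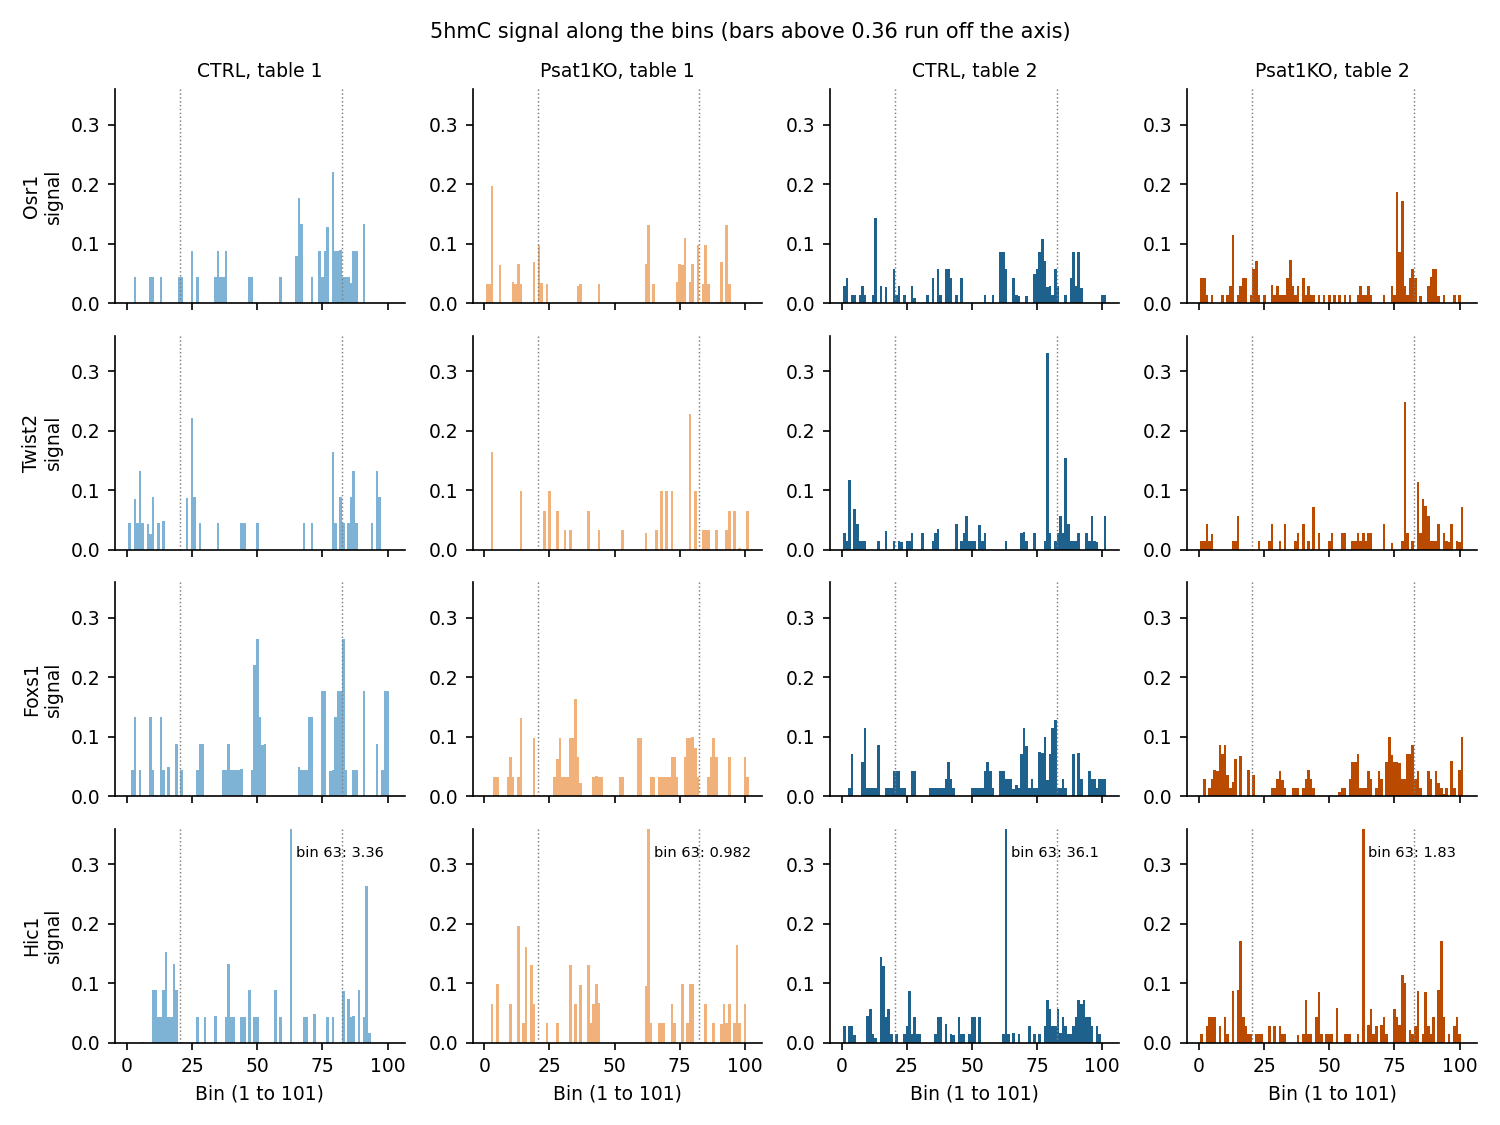
5hmC signal (vertical axis) in each bin (horizontal axis) of the 4 genes (rows) in the 4 libraries (columns). Dotted lines bound bins 21 to 82. Bins near the right-hand line recur in Osr1, Twist2 and Foxs1, and bin 63 of Hic1, whose value is printed, runs off the axis in every library.

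Profiles of a gene were compared between libraries in 20 windows of 5 bins, with bin 63 of Hic1 replaced by the mean of its neighbours. The mean Pearson r over the 6 pairs of libraries was 0.616 for Osr1, 0.527 for Hic1, 0.503 for Twist2 and 0.239 for Foxs1, against a median of 0.560 over the UP genes. The windows share libraries and depth, and the values are descriptive. Foxs1 was low in this measure, with 4.09% of UP genes below it. The 2 deeper libraries, CTRL and Psat1KO of the second table, gave 0.766 for Osr1, 0.778 for Twist2, 0.734 for Hic1 and 0.689 for Foxs1, against a median of 0.740. In the first table the same pair of genotypes gave 0.402, 0.450, 0.275 and -0.215. All 4 members had a higher r between genotypes in the deeper table. The part of depth in these values was not tested.

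By profile over bins, averaged over the libraries, the UP gene most like Osr1 was Ogg1, a DNA repair glycosylase gene (Spearman rho 0.451). For Twist2 it was the collagen gene Col1a1 (0.323), for Hic1 without bin 63 the annexin gene Anxa3 (0.310), and for Foxs1 the adrenomedullin gene Adm (0.348). Between members, rho ran from 0.0276 for Twist2 and Foxs1 to 0.163 for Twist2 and Hic1. Each closest gene is the highest of 219 compared, the other members included, so a pair of members could not exceed it. Bins of a gene are not independent, and the values are a description.

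**Figure D4:**
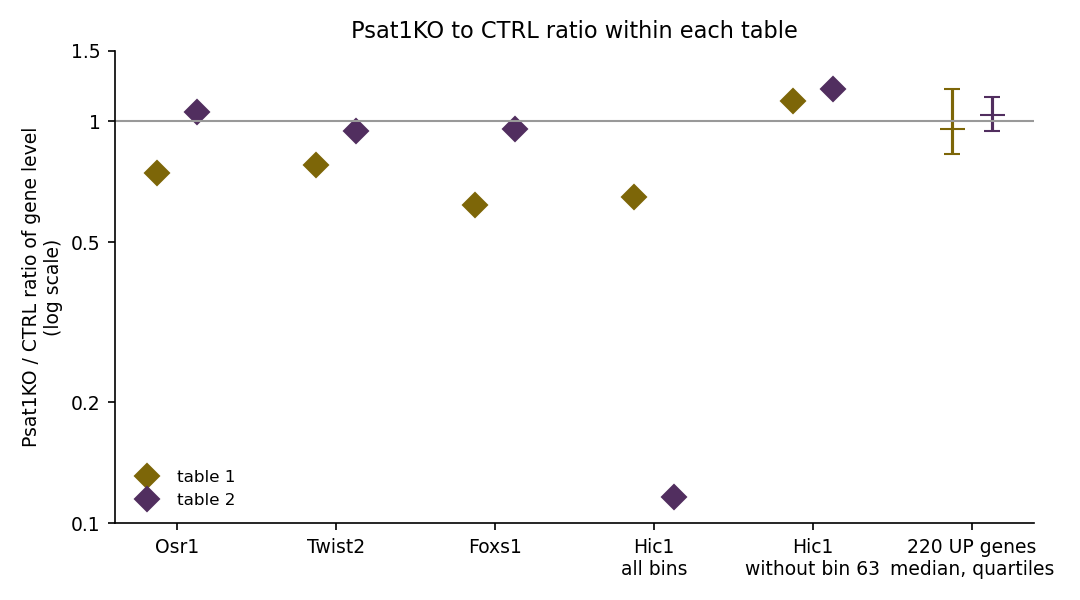
Psat1KO to CTRL ratio of the gene level (log scale) within the first table and the second table for each gene, with the median and quartiles of the 220 UP genes at the right. Osr1, Twist2 and Foxs1 have lower ratios in the first table than in the second table. Hic1 moves from below 1 (0.647 in the first table and 0.116 in the second) to above 1 when bin 63 is left out.

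Over all 273 genes, limma on log2(signal + 0.005) called 0 at an adjusted p under 0.05, which is 0.0% of the genes tested, and 8 had an unadjusted p under 0.05. None of the 4 members was called. Between genotypes, the fitted log2 differences, Psat1KO minus CTRL, were -0.14 (SE 0.15) for Osr1, -0.17 (SE 0.11) for Twist2, -0.33 (SE 0.27) for Foxs1 and -1.77 (SE 0.95) for Hic1. The value of Hic1 became 0.18 (SE 0.12) without bin 63, and that of Foxs1 became 0.0088 without CTRL replicate 1. That of Osr1 shrank to -0.0028 without the same library, and that of Twist2 to -0.087. Within a table, 47.3% of the 220 UP genes were higher in Psat1KO in the first table, with a median ratio of 0.956, and 60% in the second table, with a median ratio of 1.04. Of the 4 members with all bins, 0 were higher in the first table and 1 in the second table. Without bin 63, Hic1 was higher in both, at 1.12 and 1.20 times CTRL, so these counts depend on that bin. With 2 libraries against 2, a permutation cannot give an exact p below 0.333.

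Other genes of these cell types came from lists written by cell type, not by how their members moved. Of 35 mesenchymal and perivascular transcription factor genes, 7 were in the tables, all UP: the 4 members and Twist1, Tbx18 and Ebf1. Twist1, the paralogue of Twist2, had 0.0194 and 0.0217 in CTRL and Psat1KO of the first table and 0.02 and 0.0166 in the second table, with ratios of 1.12 and 0.829. Tbx18, a T-box factor of mural cells, had 0.830 and 0.920. Ebf1, a factor of adipogenic and B-cell development, had 1.03 and 0.963. Of these 3 genes outside the members, 2 were higher in Psat1KO in the first table and 0 in the second. Of 17 fibroadipogenic progenitor markers 9 were in the tables, 3 of them members (Osr1, Twist2 and Hic1). Of the other 6, 5 were higher in the first table and 4 in the second, with median ratios of 1.08 and 1.06. Of 17 pericyte and mural cell markers 6 were in the tables, Foxs1 among them. Of the other 5, 3 were higher in the first table and 2 in the second, with median ratios of 1.07 and 0.933. Of 10 endothelial markers, Cdh5 had ratios of 1.12 and 1.09, and Eng 0.855 and 1.24. The 3 myogenic markers had median ratios of 0.964 and 0.899, with 1 higher in each table. None of these genes passed the test.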

How the data were processed

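5hmC was measured by immunoprecipitation and sequencing in 2 CTRL and 2 Psat1KO libraries. The submitters' processing notes list MACS 1.4.2, Bowtie 1.3.1, Trim Galore 0.6.7 and the mm10 build, without saying what each did. In 2 tables, with a block per genotype, the authors deposited a coverage signal per bin of each gene. How bins were placed and scaled, and whether input was subtracted, is not given. Each block was assigned by its genotype and its table's number, taken as the replicate number.

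The level was the mean over bins. The main test was limma 3.58.1 in R 4.3.3 on log2(signal + 0.005), Psat1KO against CTRL, over all 273 genes with Benjamini-Hochberg adjustment, without covariates or a filter. It was tested on simulated data. On this scale folds of low signals are understated. P-values rest on library to library spread alone, which can be technical since separate animals are not named. Genes were matched to RefSeq by transcript (268) or symbol (5), and sequences are RefSeq's (GRCm38.p6). Members and lists were chosen with earlier results of these data known. Named genes were the members, their neighbours in level, the gene most alike in profile and the list members. Alternatives were other pseudocounts, filters, scalings and summaries, a replicate block and leaving out each library.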

Additional observations from a re-analysis of the deposited data

How the results depend on the processing

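No gene was called by limma under any of the 12 alternatives run, with 0 to 15 genes at an unadjusted p under 0.05. The log2 difference of Twist2 kept its direction under all 12. Both its Psat1KO levels lay below both CTRL levels. Other pseudocounts, gene filters, a block or leaving out 1 library therefore could not turn it, and most of the 12 carry no weight. With the median over bins it was -0.018 (SE 1.23). With the median over bins, Osr1 turned to 0.081 and Foxs1 to 0.017. In the first table the median bin of each of the 4 genes held at most 6.31e-04, below the worth of 1 read. Hic1 turned to 0.15 with bins limited to 0.5 and to 0.18 without bin 63. Leaving out 1 library gave -0.28 to -0.0028 for Osr1, -0.26 to -0.087 for Twist2, -3.07 to -0.47 for Hic1 and -0.66 to 0.0088 for Foxs1, where CTRL replicate 1 reversed the direction. Both CTRL libraries decide the size at Hic1. By level, Osr1 moved from rank 116 to 152 over the middle 51 bins, and Twist2 from 147 to 199, or to 119 by the median. Hic1 moved from rank 1 to 54 by the median, 37 with limited bins and 76 without bin 63. The cause of the rank shifts was not tested.

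With the replicate number as a block (replicate block), 0 genes were called, 13 had an unadjusted p under 0.05, and the fitted differences are -0.14, -0.17, -1.77 and -0.33 for Osr1, Twist2, Hic1 and Foxs1, which a block cannot move in this balanced design. Deviations of equally numbered libraries correlated with r = 0.221 across UP genes, but the labels do not state a pairing and 2 pairs cannot settle it. In the first table, by the estimated step, the members' bins sum to the worth of 50.3 (Twist2) to 133 (Hic1) reads, or 56.6 for the latter without bin 63.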
